A study of Bos taurus with 16 samples.

Results

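The CD44 and hyaluronan system was described here through 9 genes, CD44, HAS1, HAS2, HAS3, HYAL1, HYAL2, VCAN, TNFAIP6 and HAPLN1. They were found by matching the NCBI gene IDs of the deposited tables to their symbols, and all 9 matched 1 row each of the 34109 genes listed. CD44 was chosen by its measured level in round muscle, lower in treated calves in an earlier analysis of these data, and the others as its partners in the pathway, so the round muscle diet values are given as a description. Round and sirloin muscle of 8 neonatal Hanwoo calves (Bos taurus) was taken for RNA sequencing, which gave 16 libraries. The 4 control calves were born to cows fed 100% of their nutritional requirements, and the 4 treated calves to cows fed 150% during mid to late pregnancy. The calves were male and were sampled right after birth, before any colostrum, according to the study's methods. Replicate numbers 1 to 4 within a diet name the calf, and the round and sirloin libraries of a calf carry the same number. Every value is from a whole piece of muscle, so fewer cells of a type and less RNA per cell cannot be told apart.

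Hyaluronan is a long, unsulfated sugar chain that fills the matrix around cells. The hyaluronan synthases HAS1, HAS2 and HAS3 make it at the plasma membrane from activated sugars, and the hyaluronidases HYAL1 and HYAL2 cut it. CD44 is its main receptor at the cell surface, versican (VCAN) is a large proteoglycan that binds it, HAPLN1 is a link protein that locks proteoglycans onto the chain, and TNFAIP6 transfers protein heavy chains onto it. In skeletal muscle, hyaluronan lies mainly in the connective tissue around the fibres and around dividing precursor cells.

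The counts assigned to genes ranged from 44473011 to 72446933 per library. Levels are given as the authors' TPM (transcripts per 1000000, scaled by gene length), and differences as log2 fold changes with their standard error (SE). Round control replicate 2, labelled round5, stood apart and is shown apart. It was the deepest library and the highest of the 8 round libraries for 22.8% of the 11856 genes with a mean TPM of 1 or more. All 8 tendon markers and 6 of 7 fibroblast markers were highest there, with a summed TPM of 218.6 against 19.9 to 46.9 for the tendon markers and of 1593 against 267.9 to 418.6 for the fibroblast markers in the other 7 round libraries. None of its 6 leukocyte markers was the highest, and their sum of 7.21 TPM lay within the 2.99 to 12.5 of the others. Its endothelium sum of 75.6 TPM and adipocyte sum of 3.10 TPM were above the other round libraries, which had at most 73.2 and 2.01. The marker lists were chosen with earlier results of these data known, so these values are a description. Muscle fibre markers summed to between 46078 and 85340 TPM in all 16 libraries. Sirloin treated replicate 4 had an adipocyte marker sum of 951.4 TPM, while the other sirloin libraries had at most 2.03. The plot of marker sums shows both patterns that concern the hyaluronan genes, the connective tissue markers of round control replicate 2 and the leukocyte markers of treated replicate 2.

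**Figure D1:**
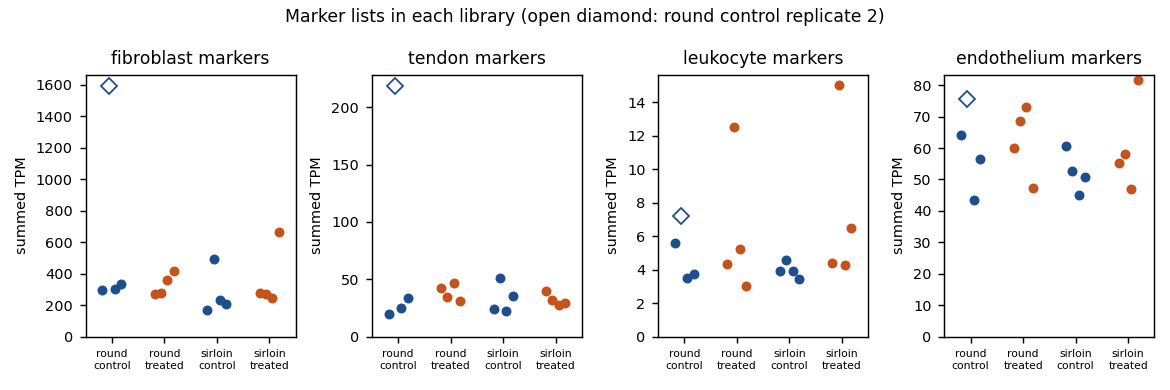
Summed TPM (vertical axes, linear) of the fibroblast, tendon, leukocyte and endothelium markers in each of the 16 libraries, by muscle and diet, with 1 point per library and round control replicate 2 as an open diamond. That library stands far above the other 15 for fibroblast and tendon markers, and treated replicate 2 has the highest leukocyte sums, 12.5 in round and 15.04 in sirloin.

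CD44 had the highest mean TPM of the 9 genes over the 16 libraries, at 10.1, or 7.09 without round control replicate 2. HYAL1 (6.43), VCAN (5.58) and HYAL2 (5.37) followed, then TNFAIP6 (2.68), HAS3 (0.955), HAS2 (0.322), HAS1 (0.0325) and HAPLN1 (0.00772). Neighbours among CD44, HYAL1, VCAN and HYAL2 did not differ beyond the spread over 8 libraries in either muscle. HYAL2 exceeded TNFAIP6 in 7 of 8 round and 8 of 8 sirloin libraries, with a gap larger than the SD in sirloin muscle (means of 4.71 and 1.86 TPM). CD44 exceeded HYAL1 in 5 of 8 round libraries but in 3 of 8 sirloin libraries. TNFAIP6 exceeded HAS3 in every library of both muscles, although the gap between their means was smaller than the larger SD in each. HAS3 exceeded HAS2 in 8 of 8 round and 7 of 8 sirloin libraries, with a gap larger than the SD in both muscles. The synthases were thus the lowest of the genes that were clearly detected, and HAS1 and HAPLN1 were near or at 0 in most libraries.

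**Figure D2:**
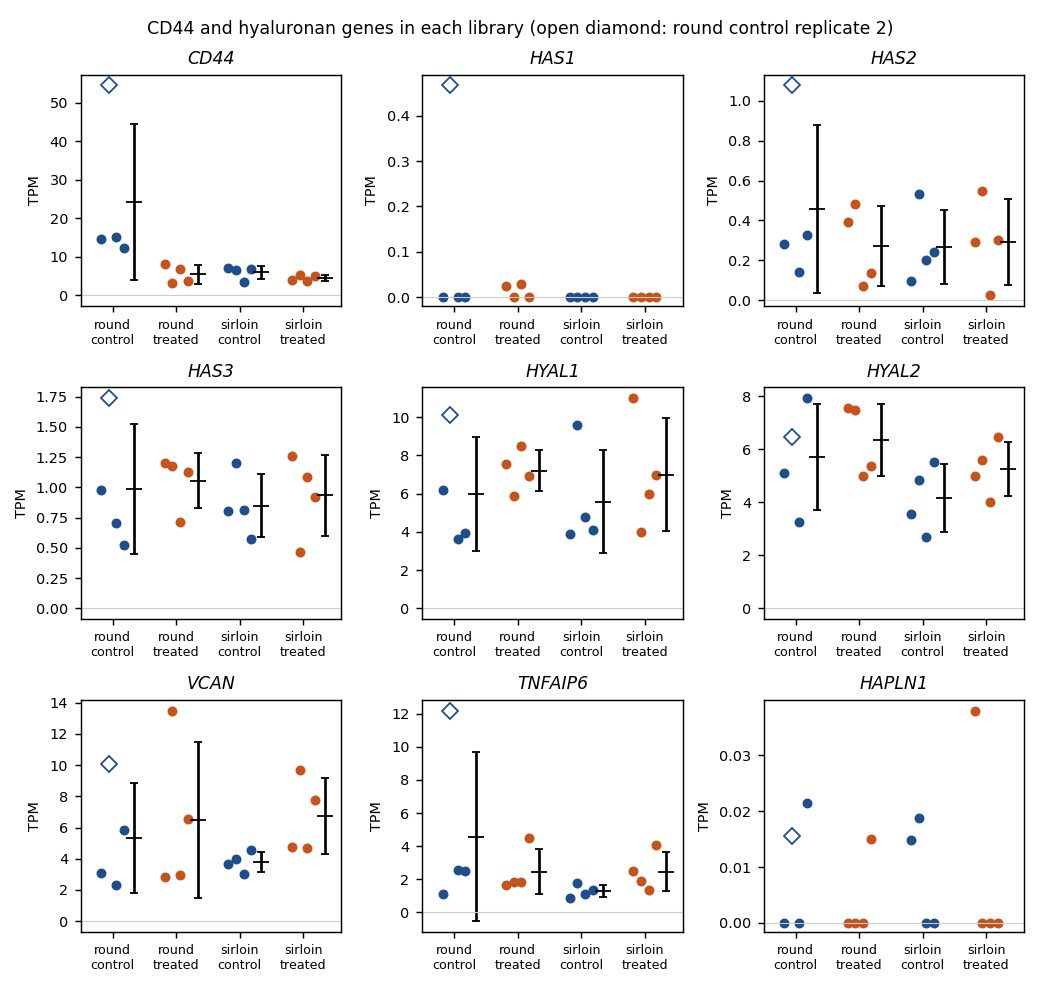
TPM of the 9 genes (vertical axes, linear, a different scale in each panel) in each of the 16 libraries, by muscle and diet, with 1 point per library, round control replicate 2 as an open diamond, and the mean and SD of the 4 libraries as a bar beside the points, except for HAS1 and HAPLN1 with under 50 counts in all. CD44 in the other 3 round control libraries lies between 12.3 and 15.3, above all 4 treated round libraries, and in sirloin muscle the diets overlap.

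The receptor CD44 was measured at 14.7, 15.3 and 12.3 TPM in round control replicates 1, 3 and 4, and at 54.6 TPM in round control replicate 2. The treated round libraries held 8.04, 3.21, 6.91 and 3.67 TPM. All 4 controls were above all 4 treated libraries, and replicate 2 was 3.57 times the next highest round library. The mean was 24.2 ± 20.3 TPM in controls and 5.45 ± 2.38 in treated calves (SD, n = 4 each), a ratio of 4.44, and without replicate 2 the control mean was 14.1 ± 1.57 (SD, n = 3) and the ratio 2.58. On the log2 scale the edgeR estimate for CD44, treated over control, was -2.16 (SE 0.475) with all 8 libraries and -1.58 (SE 0.364) without control replicate 2. CD44 was the only one of the 9 genes whose round groups did not overlap in TPM, where 0.567% of the 21677 genes tested lay wholly lower in treated calves. This contrast chose CD44, so nothing is read from that count. By edgeR 0 of the 9 members were called in round muscle (0.0185% of all genes were), 1 had an unadjusted p under 0.05, and DESeq2 called 1, CD44, where it called 0.212% of all genes. Past an unadjusted p under 0.05 were 4.41% of all genes. Without control replicate 2, a setting chosen after seeing the data, DESeq2 called CD44 and 0.334% of all genes. In the other 3 round controls the tendon sums of 19.9 to 33.3 TPM and the fibroblast sums of 295 to 331.8 TPM overlapped those of treated calves, and the part of connective tissue in the CD44 levels was not tested.

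Sirloin muscle of the same calves gave much closer CD44 levels. The control libraries held 7.02, 6.66, 3.54 and 6.92 TPM, and the treated libraries 4.04, 5.26, 3.66 and 5.14 TPM. Control replicates 1, 2 and 4 were above every treated library, and control replicate 3 was below all of them, so that the groups overlapped. The means were 6.03 ± 1.67 and 4.52 ± 0.796 TPM (SD, n = 4 each). The log2 fold change was -0.60 (SE 0.285), which did not pass the threshold (edgeR, adjusted p = 0.876, unadjusted p = 0.0601), and the estimate stayed between -0.78 and -0.48 when single calves were left out. In the calf whose round library reached 54.6 TPM, sirloin CD44 was 6.66 TPM, 8.19 times lower and in the range of the other controls. The difference of the diet effect between the muscles was -1.60 (SE 0.571) for CD44, more negative in round, and it did not pass the threshold over all genes (edgeR, adjusted p = 1.00, unadjusted p = 0.0124). It was -0.99 (SE 0.50) without control replicate 2 and -1.54 (SE 0.511) with the calf as a block. This contrast holds the round difference that chose CD44, so it is given as a description. edgeR called 0 of 22877 genes in it (0%), with 637 at an unadjusted p under 0.05, and DESeq2 called 0 as well, with 290.

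Among the synthases HAS1 was present in 3 round libraries alone. Round control replicate 2 held 44 counts (0.468 TPM), treated replicates 1 and 3 held 2 and 3 counts (0.024 and 0.029 TPM), and the other 5 round libraries and all 8 sirloin libraries held 0. Over the sirloin libraries together, 0 counts allow a level of up to 0.00663 CPM (counts scaled to a library total of 1000000), counting error only. Of its 49 counts, 44 thus came from the library with the high tendon and fibroblast markers, and no fold change is given.

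HAS2, the main synthase of the embryo, was low in every library. Round controls held 0.282, 1.08, 0.140 and 0.329 TPM and treated round libraries 0.393, 0.484, 0.068 and 0.137 TPM. Control replicate 2 was again the highest, and the other 7 libraries of the groups overlapped. The log2 fold change was -0.80 (SE 0.687) and -0.13 (SE 0.659) without control replicate 2. In sirloin muscle the controls held 0.097, 0.530, 0.202 and 0.242 TPM and the treated libraries 0.290, 0.548, 0.023 and 0.302 TPM. The ranges lay within each other, and the log2 fold change of -0.04 (SE 0.728) was far below its error. HAS2 rested on 866 counts over the 16 libraries, as few as 5 in sirloin treated replicate 3.

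The third synthase, HAS3, varied less. Its round levels were 0.978, 1.74, 0.704 and 0.527 TPM in controls and 1.2, 1.17, 0.714 and 1.13 TPM in treated calves. Control replicate 2 held the highest and control replicate 4 the lowest level, with all treated libraries in between. In sirloin muscle HAS3 was at 0.804, 1.2, 0.811 and 0.572 TPM in controls and at 1.26, 0.468, 1.08 and 0.921 TPM in treated calves, which overlapped. As CPM the lowest sirloin library was control replicate 4 (1.27) and not treated replicate 2 (1.94), and the TPM per CPM of HAS3, scaled to the median gene of each library, ran from 0.434 to 0.232 in these, a spread over all libraries above that of 98.2% of genes. The log2 fold changes were -0.03 (SE 0.342) in round and 0.17 (SE 0.371) in sirloin muscle. HAS3 overlaps DERPC and CHTF8 in the RefSeq gene table, and whether the counting used the strand is not given in the sources used here.

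HYAL1, the lysosomal hyaluronidase, was measured in round muscle at 6.18, 10.1, 3.62 and 3.95 TPM in controls and at 7.52, 5.90, 8.48 and 6.92 TPM in treated calves. Control replicate 2 was the highest of the 8, control replicates 3 and 4 were below every treated library, and control replicate 1 was within the treated range. As CPM control replicate 1 (9.96) was also below every treated library, of which the lowest held 10.7. The log2 fold change was 0.19 (SE 0.302) with all libraries and 0.48 (SE 0.260) without control replicate 2. The sirloin levels were 3.87, 9.60, 4.77 and 4.07 TPM in controls and 11.0, 3.98, 5.97 and 6.99 TPM in treated calves. Here too the calf of control replicate 2 was the highest control, and the groups overlapped (0.17, SE 0.389, edgeR adjusted p = 1.00). The scaled TPM per CPM of HYAL1 ran from 0.467 to 0.653, a spread above that of 96.9% of genes.

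HYAL2, which sits at the cell surface by a lipid anchor, gave close levels in both diets. Round controls held 5.12, 6.47, 3.25 and 7.94 TPM and treated round libraries 7.56, 7.50, 5.0 and 5.37 TPM. Sirloin controls held 3.56, 4.84, 2.70 and 5.53 TPM and treated sirloin libraries 5.0, 5.59, 4.01 and 6.45 TPM. Round control replicate 2 was not extreme for HYAL2, ranking 4 of 8. The log2 fold changes were 0.07 (SE 0.319) in round and 0.17 (SE 0.279) in sirloin muscle, both smaller than their errors. HYAL2 and HYAL1 are neighbours on chromosome 22, next to HYAL3, and HYAL2 overlaps TUSC2 in the gene table.

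Versican, the hyaluronan-binding proteoglycan, spread widely in round muscle, at 3.09, 10.1, 2.31 and 5.87 TPM in controls and 2.85, 13.5, 2.95 and 6.57 TPM in treated calves. Replicate 2 was the highest of each group, and the groups covered the same range (log2 fold change 0.06, SE 0.560). In sirloin muscle the controls held 3.64, 3.98, 3.02 and 4.56 TPM and the treated libraries 4.78, 9.67, 4.70 and 7.76 TPM. All treated sirloin libraries were above all controls, the only such case among the 8 members tested there, where 2.99% of the 21776 genes tested had groups that did not overlap in either direction. The means were 3.80 ± 0.643 and 6.73 ± 2.43 TPM (SD, n = 4 each), a ratio of 1.77. The counts did not give the same order. As CPM, VCAN was at 19.6, 20.5, 14.2 and 23.8 in sirloin controls and at 17.1, 50.4, 22.3 and 37.7 in treated calves, so that the groups overlapped, and no member was without overlap on this scale, where 3.01% of genes were. The log2 fold change from the counts was 0.51 (SE 0.314) and did not pass the threshold (edgeR, adjusted p = 0.876, unadjusted p = 0.136). The TPM per CPM of VCAN, scaled to the median of 10595 genes in each library, was 0.280 and 0.279 in the round and sirloin libraries of treated replicate 1 and 0.178 to 0.231 in the others, a spread above that of 98.5% of these genes. Treated replicate 2, with the most VCAN, also had the highest leukocyte marker sums in both muscles, 12.5 and 15.04 TPM, and their part in the VCAN level was not tested.

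TNFAIP6, which is induced by inflammatory signals and loads heavy chains onto hyaluronan, was measured at 1.08, 12.2, 2.57 and 2.46 TPM in round controls and at 1.63, 1.80, 1.84 and 4.51 TPM in treated calves. Control replicate 2 was 2.70 times the next highest library, and the other libraries overlapped. The log2 fold change was -0.87 (SE 0.631) with and -0.05 (SE 0.548) without that library. Sirloin levels were 0.882, 1.75, 1.11 and 1.37 TPM in controls and 2.49, 1.87, 1.33 and 4.06 TPM in treated calves. Treated replicates 1, 2 and 4 were above every control and replicate 3 was not, and the log2 fold change of 0.64 (SE 0.457) did not pass the threshold (edgeR, adjusted p = 0.876). The diet effects of the muscles differed by -1.55 (SE 0.831, edgeR adjusted p = 1.00), or by -0.87 (SE 0.756) without control replicate 2. Treated replicate 4 was the highest treated library for TNFAIP6 in both muscles, and its sirloin library was also the one with the adipocyte markers. These libraries also had the highest fibroblast sums of the treated calves, 418.6 TPM in round and 662.2 in sirloin muscle. The part of either marker list in the TNFAIP6 level was not tested.

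HAPLN1 was barely detected, with 20 counts in 6 libraries and at most 0.038 TPM. The counts were 3 and 4 in round control replicates 2 and 4, 2 in round treated replicate 4, 2 and 4 in sirloin controls 1 and 2, and 5 in sirloin treated replicate 1. No diet or muscle stood out, and no fold change is given. HAPLN1 lies next to VCAN on chromosome 7 in the gene table and overlaps LOC101902163.

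**Figure D3:**
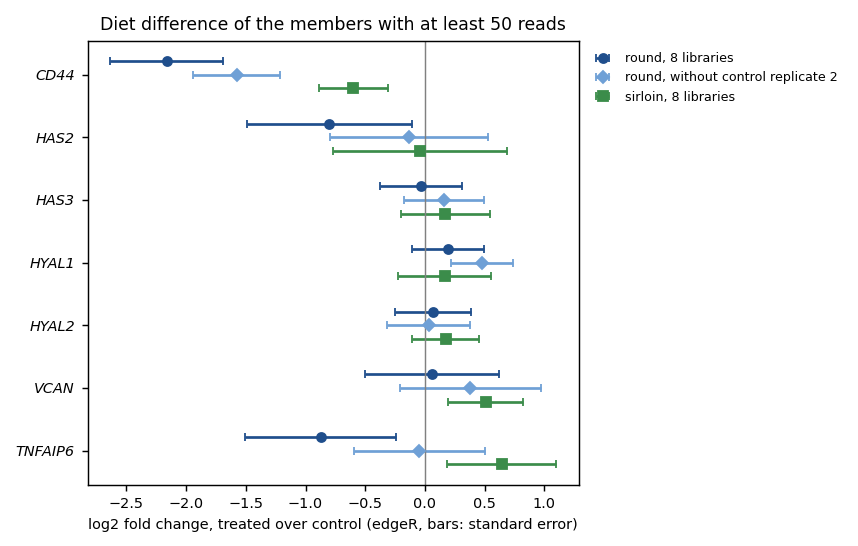
Log2 fold change, treated over control, from edgeR (horizontal axis, with SE bars) of the 7 genes with at least 50 counts, in round muscle with 8 libraries, in round muscle without control replicate 2, and in sirloin muscle. CD44 is at -2.16, -1.58 and -0.60, TNFAIP6 moves from -0.87 to -0.05 without that library, and the bars of HAS3 and HYAL2 cross 0 in all 3 fits.

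In sirloin muscle 0 of the 8 members tested were called by edgeR, which called 2 of 21776 genes (0.00918%), and 0 had an unadjusted p under 0.05 (3.91% of all genes). DESeq2 also called 0 of them and 0.0597% of all genes, with 1 member at an unadjusted p under 0.05. The median log2 fold change of the 7 members with at least 50 counts was 0.17 in sirloin and -0.03 in round muscle, beside medians of 0.03 and 0.02 over all genes tested. Round control replicate 2 was the highest of the 8 round libraries for 6 of the 9 members, CD44, HAS1, HAS2, HAS3, HYAL1 and TNFAIP6, and for 22.8% of all genes at a mean TPM of 1 or more. HAS1, HAS2 and HAPLN1 had round means under 1 TPM and so fall outside that share. CD44 was chosen by its round levels.

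Round muscle was next compared with sirloin muscle over both diets, a difference the choice of the genes did not use directly. This difference still holds the round control levels that chose CD44, so the CD44 values and calls here are a description. CD44 was higher in round than in sirloin muscle in 6 of 8 calves, in all 4 control calves and in treated replicates 1 and 3. The log2 difference was 1.19 (SE 0.288) and did not pass the threshold (edgeR, adjusted p = 0.269). With the calf as a block it was 1.06 (SE 0.257, edgeR adjusted p = 0.107, with 0.476% of genes called), and without control replicate 2 it was 0.90 (SE 0.251, edgeR adjusted p = 0.609). DESeq2 called CD44, with an adjusted p of 0.0211, and 0.363% of 22877 genes, where edgeR called 0.0612% and 0 members. HYAL2 was higher in round muscle in 7 of 8 calves, all but treated replicate 4. Its log2 difference was 0.45 (SE 0.205, edgeR adjusted p = 0.777), and 0.43 (SE 0.131, edgeR adjusted p = 0.190) with the calf as a block. With DESeq2 and the calf block, CD44 (adjusted p = 0.00289) and HYAL2 (adjusted p = 0.0340) were called among 3.79% of all genes. That setting was chosen after seeing the data, and HYAL2 was called in no other fit. TNFAIP6 was higher in round muscle in 6 of 8 calves, by 0.87 (SE 0.416), or 0.55 (SE 0.378) without control replicate 2, and was called in no fit. The differences of HAS2 (0.39), VCAN (0.29), HAS3 (0.21) and HYAL1 (-0.07) were smaller than their SE of 0.533, 0.358, 0.242 and 0.254. No member was higher in round muscle in all 8 calves, which 0.656% of the genes were.

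The muscles of a calf were compared for the 7 genes with at least 50 counts, by the correlation of log2 TPM over the 8 calves. HYAL2 had the highest Pearson's r, 0.793 (exact permutation p = 0.0312, adjusted 0.109 over 7 genes), with a Spearman's rho of 0.667 (exact permutation p = 0.0831, adjusted 0.224). HAS2 followed with r = 0.763 (exact permutation p = 0.0241, adjusted 0.109) and rho = 0.714 (exact permutation p = 0.0576, adjusted 0.224). None of the 7 passed after adjustment. The 2 calves farthest in round muscle from the median of the gene in question were then left out. The r of HYAL2 was 0.445 without control calves 3 and 4. That of HAS2 was 0.317 without control calf 2 and treated calf 3. Leaving out the extremes narrows the range and can itself lower r. No other pair was left out, so nothing is concluded from these drops. VCAN (r = 0.676, exact permutation p = 0.0801, adjusted 0.140, and rho = 0.5, exact permutation p = 0.216, adjusted 0.303) and HYAL1 (r = 0.674, exact permutation p = 0.0575, adjusted 0.134, and rho = 0.643, exact permutation p = 0.0962, adjusted 0.224) were at r = 0.764 without control calf 2 and treated calf 2, and r = 0.722 without control calves 3 and 4. For CD44 r was 0.342 (exact permutation p = 0.410, adjusted 0.410) and rho 0.167 (exact permutation p = 0.703, adjusted 0.703), the lowest of the 7, and r was 0.2 without control calf 2, which had 54.6 TPM in round muscle, and treated calf 2. TNFAIP6 and HAS3 had r of 0.392 and 0.393 (exact permutation p = 0.353 and 0.332, adjusted 0.410 each), rho of 0.262 and 0.5 (exact permutation p = 0.536 and 0.216, adjusted 0.626 and 0.303), and r of 0.154 and -0.184 without their 2 farthest calves.

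**Figure D4:**
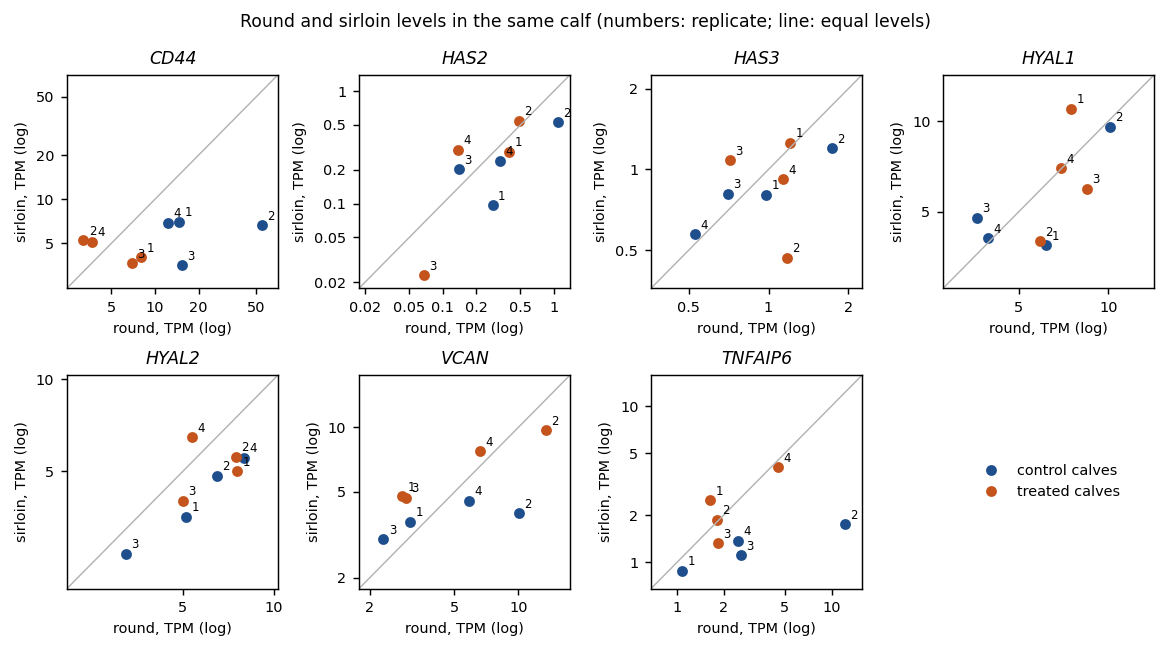
Round TPM (horizontal axes, log) against sirloin TPM (vertical axes, log) of the 7 genes with at least 50 counts, 1 point per calf, coloured by diet and numbered by replicate, with the line of equal levels. For CD44 6 of 8 calves lie below the line, with control calf 2 far to the right, and for HYAL2 7 of 8 calves lie below it.

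Genes whose pattern over the 16 libraries was most like that of CD44 were named by Pearson's r of log2 CPM after the mean of each muscle was removed, among 12314 genes. They were C23H6orf132 (0.893), TMBIM4 (0.890), ANXA2 (0.879), MYADM (0.876) and GIPC2 (0.876). The diet means were not removed, so a diet difference shared with CD44, the one that chose it, raises this r. Round control replicate 2 weighed on this order, since without it the first was FOSL1 (0.924) and of the 5 only C23H6orf132 (0.887) stayed among the first 5. The 16 points come from 8 calves. Of the other members, HAS1, HAS2 and HAPLN1 were too low for this comparison. TNFAIP6 had an r of 0.379 with CD44, which was -0.0845 without that library. The r of HAS3 was 0.060 with and -0.273 without it, that of HYAL1 0.015 and -0.306, that of VCAN -0.027 and -0.371, and that of HYAL2 -0.0014 and -0.017.

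The wider pathway was read from 45 further genes in 7 lists, of which 42 were tested in round and 41 in sirloin muscle. edgeR called 0 of them in either muscle and DESeq2 0 as well. In round muscle 4 were higher and 3 lower at an unadjusted p under 0.05 (4.41% of all genes were past it), and in sirloin muscle 1 was higher and 4 lower (3.91%). The 4 higher in round and 3 of the 4 lower in sirloin muscle belonged to the heavy chain list, and the others were UAP1, CEMIP2, ADAMTS20 and MMP14. The median log2 fold change of the pathway genes outside the 9 was -0.18 in round and 0.04 in sirloin muscle.

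CEMIP2, a cell-surface protein tied to hyaluronan breakdown, had the lowest estimates in both muscles of the genes drawn in the plot of the other pathway genes. It was at 6.55, 6.0, 34.9 and 24.1 TPM in round controls and at 3.35, 4.56, 3.71 and 7.53 TPM in treated calves. Control replicates 3 and 4 were high, and replicates 1 and 2 lay within the treated range. The log2 fold change was -2.02 (SE 0.563, edgeR adjusted p = 0.864), and in sirloin muscle, with 21.8, 5.79, 12.3 and 27.2 TPM in controls and 5.28, 10.6, 10.4 and 8.48 TPM in treated calves, it was -1.14 (SE 0.424, edgeR adjusted p = 0.876). CEMIP2 passed the threshold only with DESeq2 and without control replicate 2, at -2.36 in round and -1.44 in sirloin muscle (DESeq2, adjusted p = 0.00114 and 0.0264). That setting was chosen after seeing the data. It leaves out the control with the lowest CEMIP2 in each muscle, so nothing is read from these calls. Those fits called 71 of 21283 genes in round (0.334%) and 35 of 21421 in sirloin muscle. In round muscle the library with the highest CD44, control replicate 2, was not among those with high CEMIP2, whereas in sirloin muscle control replicate 1 had the highest TPM of CD44 and the second highest of CEMIP2.

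Of the genes that act on CD44, MMP14, a membrane protease that can cut it, was at 4.00, 8.43, 5.08 and 4.77 TPM in sirloin controls and at 9.70, 18.2, 9.63 and 16.8 TPM in treated calves. All treated libraries were above all controls. Over all genes tested in sirloin muscle, 2.99% had TPM that did not overlap between the diets. MMP14 was named for its small p in this contrast, so nothing is read from its lack of overlap. Its log2 fold change was 1.11 (SE 0.303, edgeR adjusted p = 0.876). MMP14 passed only with DESeq2 and without control replicate 2 (1.35, DESeq2 adjusted p = 0.0185), where 35 of 21421 genes were called. That setting was chosen after seeing the data and leaves out the sirloin control highest in MMP14, so nothing is read from the call. In round muscle MMP14 was at 21.9 TPM in control replicate 2 and at 3.54 to 4.36 TPM in the other controls, against 7.35 to 9.22 TPM in treated calves, and its log2 fold change was 0.02 (SE 0.486) with that library and 0.91 (SE 0.264, edgeR adjusted p = 0.788) without it. Among the linkers of CD44 to actin, RDX had estimates of -0.62 (SE 0.304) in round and -0.54 (SE 0.246) in sirloin muscle, MSN -0.56 (SE 0.304) and -0.10 (SE 0.224), and EZR -0.14 (SE 0.253) and 0.36 (SE 0.345). None of the 3 was called. Round MSN was at 69.4 TPM in control replicate 2, 26.4 to 31.7 in the other controls and 19.2 to 35.2 in treated calves. Leaving out single replicates moved its round estimate between -0.75 and -0.27.

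The versican-cutting protease ADAMTS20 was at 12.3, 13.2, 21.6 and 10.7 TPM in round controls and at 6.56, 8.27, 6.78 and 8.52 TPM in treated calves, without overlap (-1.01, SE 0.259, edgeR adjusted p = 0.864). ADAMTS20 was also named for its small p, and 0.567% of the genes tested in round muscle lay wholly lower in treated calves. It passed only with DESeq2 and without control replicate 2 (-1.14, DESeq2 adjusted p = 0.0495), where 0.334% of genes were called. That setting was chosen after seeing the data. ADAMTS1 and ADAMTS4, of the same family, had log2 fold changes of -0.57 (SE 0.470) and -0.12 (SE 0.617) in round and 0.37 (SE 0.419) and 0.91 (SE 0.608) in sirloin muscle. Single libraries carried these values. Without treated replicate 4 ADAMTS1 was at -1.30 in round and -0.35 in sirloin muscle, and without control replicate 2 ADAMTS4 was at 0.91 (SE 0.463) in round muscle. UGP2, UAP1, PGM3 and GFPT2 supply the sugar precursors. UAP1 and PGM3 were each at -0.67 in round muscle (SE 0.287 and 0.327), and in sirloin muscle GFPT2 was at 0.86 (SE 0.399) and UGP2 at -0.25 (SE 0.239). Of the enzymes that finish the breakdown, HEXA, the highest of its list, was at 0.12 (SE 0.236) in round muscle. The other receptors LYVE1 and STAB1 were at 0.98 (SE 0.522) and 0.41 (SE 0.251) in sirloin muscle. No edgeR adjusted p of these genes was under 0.864 with all libraries.

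Of the liver-made inter-alpha-inhibitor genes, ITIH1 and ITIH3 encode heavy chains, which TNFAIP6 transfers, and AMBP does not. These genes were low, with counts of AMBP in 11, of ITIH3 in 8 and of ITIH1 in 2 of the 16 libraries. AMBP was at 5.36 TPM in round treated replicate 3 and 1.73 TPM in sirloin control replicate 2, and at most 0.795 TPM elsewhere. ITIH1 was at 0.333 and 0.177 TPM in those 2 libraries, and ITIH3 was at 2.03 and 0.605 TPM there. The diet effect on AMBP differed between the muscles by 8.56 on the log2 scale and was called only with the calf as a block (8.87, edgeR adjusted p = 0.0223), where 0.00437% of genes were. PTX3, which also binds these chains, ranged from 0.655 to 25.5 TPM without a split by diet. Of the link proteins and proteoglycans, HAPLN3 was at 3.28 TPM and ACAN at 0.991 TPM in round control replicate 2, above every other library. SPAM1, STAB2, HAPLN4, BCAN and NCAN had at most 6 counts each over all libraries.

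**Figure D5:**
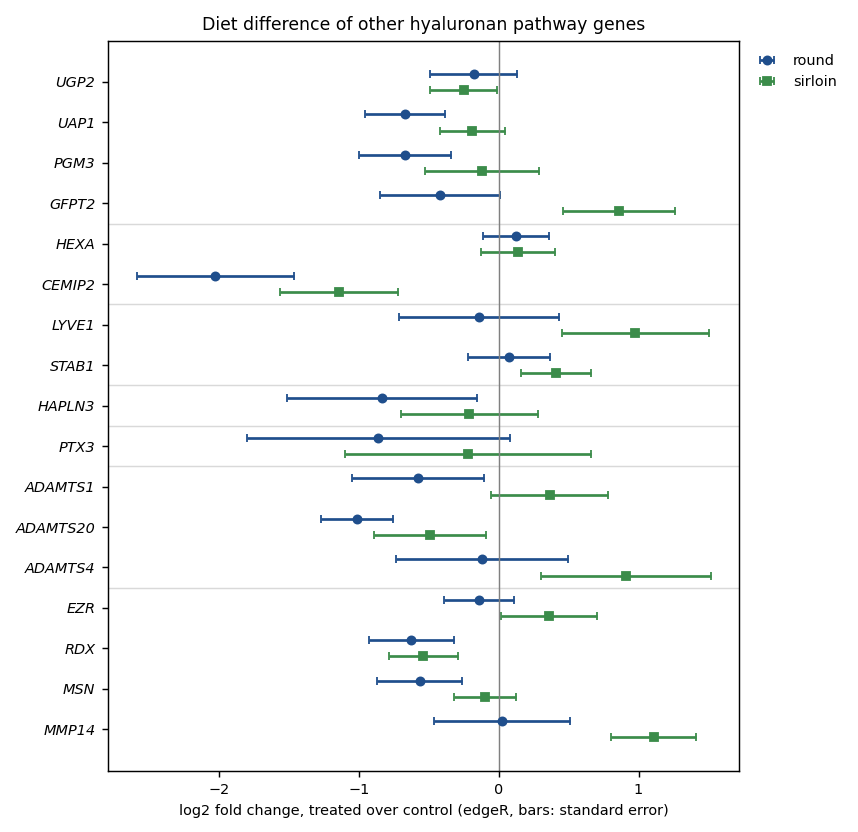
Log2 fold change, treated over control, from edgeR (horizontal axis, with SE bars) of the other pathway genes named in the text with at least 50 counts, except AMBP, ITIH1, ITIH3 and ACAN, in round and sirloin muscle, in blocks by list (precursor supply, breakdown, receptors, link proteins, heavy chain transfer, versican proteases, and CD44 linkers and proteases). CEMIP2 lies lowest in both muscles and MMP14 highest in sirloin muscle, and no gene shown passed the threshold with edgeR.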

How the data were processed

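Hanwoo calf muscle RNA was sequenced on Illumina NovaSeq. The authors deposited raw read counts and TPM for 34109 genes per muscle. The deposited counts are whole numbers and were used for every test, and the deposited TPM, which sum to between 999756 and 1000000 per library, were used for levels. The submitters' processing notes name Trimmomatic, STAR, featureCounts, DESeq2 and the build ARS-UCD1.2, whereas the study's methods name HISAT2, Bowtie2 and StringTie. The labels state poly(A) selection and the methods a depletion kit for rRNA and globin RNA. Deposited tables of fold changes and p-values were not used. The unit of the normalized file was taken from its sums.

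Gene IDs were matched to a RefSeq gene table, which gave symbols for 30762 of them and was used for names and neighbours only. The members, the 7 lists of pathway genes and the marker lists were chosen with earlier results of these data known. The main test was edgeR 4.0.16 in R 4.3.3 with TMM factors and the quasi-likelihood F test, two-sided, on genes with at least 1 count in any library of the fit. P-values were adjusted by Benjamini-Hochberg over all genes tested, with a threshold of 0.05. The SE is the size of the log2 fold change divided by the square root of F. The diets were tested within each muscle, and the muscles and the difference of diet effects in 1 fit with 4 groups. Alternatives were DESeq2 1.42.0, RLE factors, filterByExpr, all 16 libraries in 1 fit, blocks, and leaving out each replicate. The scripts were tested on simulated data. Besides the members, the text names from each pathway list the gene with the highest mean TPM, the 2 with the smallest p in each diet contrast and any past the threshold, and the 5 genes most like CD44. Genes with under 50 counts in all are given as counts, and 1 gene that this rule picks is not reported here.

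After removal of the group means, the muscles of the same calf correlated at 0.311 to 0.765 over 12315 genes and those of different calves at -0.524 to 0.456, so the calf pairs the muscles. Libraries with the same number in different diets correlated at -0.28 to 0.29, so the numbers do not pair the diets. P-values of the diet tests within a muscle measure the spread between 4 calves per diet. In the fit with 4 groups, the muscles of a calf count as separate libraries. Its p-values thus measure the spread between libraries, except where the calf is a block. The marker PAX7 was not matched to a listed gene.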

Additional observations from a re-analysis of the deposited data

Results flagged for a closer look

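The highest or lowest library of each group of 4 was compared with its nearest neighbour by Dixon's ratio, for 31 genes in 120 groups, of which 27 stood apart. For normally distributed values chance alone flags about 1 in 20 groups, and groups share libraries. A group of 4 with counts in a single library is always flagged, so the 27 cannot be set against that share. Of the 27, 8 were in round control replicate 2, namely CD44 (54.6 TPM), HAS1 (0.468), TNFAIP6 (12.2), HAPLN3 (3.28), ACAN (0.991), ADAMTS4 (2.43), MSN (69.4) and MMP14 (21.9), each the highest of its group. That library also had the high tendon and fibroblast markers, whose part in these levels was not tested.

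Among the other members, the lowest libraries of their groups that stood apart were sirloin control replicate 3 for CD44 (3.54 TPM) and round treated replicate 3 for HAS3 (0.713). The highest were sirloin control replicate 2 for HYAL1 (9.6 TPM), round treated replicate 4 for TNFAIP6 (4.51) and, on counts of at most 5, round treated replicate 4 (0.015) and sirloin treated replicate 1 (0.038) for HAPLN1.

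In the wider pathway, round treated replicate 3 was far above its group for AMBP (5.36 TPM), ITIH1 (0.333) and ITIH3 (2.03). For ITIH1 it was the only library of its group with counts. In sirloin treated replicate 3 of the same calf, AMBP (0.0902) and ITIH3 (0.0381) were flagged on 4 counts each, with 0 in the rest of the group. Sirloin control replicate 2 stood apart for ITIH1 (0.177) and ACAN (0.0607), on 26 and 22 counts with 0 in the rest of the group. Treated replicate 4 had ADAMTS1 at 22.2 TPM in round and 21.6 in sirloin muscle, and MSN at 27.8 in sirloin muscle. Sirloin control replicate 4 was apart for PTX3 (17.7) and RDX (56.7), and round treated replicate 1 for HAPLN3 (1.21). AMBP was marked because round minus sirloin TPM was below 0 in all 4 control calves and above 0 in all 4 treated calves, with a mean for controls minus treated of -2.1 TPM. Round controls held at most 9 counts and treated sirloin libraries at most 4, so several of these signs rest on a few counts. The mean rests largely on round treated replicate 3, with 265 counts. The difference of the diet effects is tested in the report.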

How the results depend on the processing

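With DESeq2 in place of edgeR the genes called rose from 4 to 46 in round muscle (1 member, CD44), from 2 to 13 in sirloin muscle and from 14 to 83 between the muscles (1 member, CD44). DESeq2 without control replicate 2, chosen after seeing the data, called 71 in round (1 member) and 35 in sirloin muscle. A replicate block across the diets, whose numbers do not pair the calves, gave 2 and 0. The calf as replicate block gave 1 gene for the difference of the diet effects, 109 between the muscles, 50 without control replicate 2 and 866 with DESeq2 (2 members), the last 2 chosen after seeing the data. With edgeR it changed no member's call. Without single replicates edgeR called 0 to 3 genes in round, 0 to 1 in sirloin muscle and 13 to 19 between the muscles. The log2 ratio of control to treated TNFAIP6 means in round muscle went from 0.90 to -0.26 without control replicate 2. Of the 5 genes most like CD44, 2 were kept with Spearman's rho and 1 without that library. Estimates changed sign in some settings that keep all replicates or combine choices, in round muscle those of HAS3 (0.013 with the replicate block, 0.16 with DESeq2 without control replicate 2), VCAN (-0.16 with the block), ACAN (from -2.95 to 0.69 with DESeq2 without control replicate 2) and ADAMTS4 (0.32 with the block, 0.92 with DESeq2 without control replicate 2), in sirloin muscle HAS2 (0.50, same setting), and between the muscles HYAL1 (0.014) and VCAN (-0.072) with the calf block without control replicate 2. Leaving out replicates in round muscle moved HAS3 between -0.16 and 0.16, HYAL2 between -0.12 and 0.30, VCAN between -0.66 and 0.38, STAB1 between -0.10 and 0.32, ACAN between -3.81 and 0.69, HEXA between -0.0085 and 0.23, ADAMTS4 between -0.46 and 0.91, EZR between -0.27 and 0.0065 and MMP14 between -0.22 and 0.91. It moved HAS2 between -0.50 and 0.49, HAS3 between -0.039 and 0.37, HYAL1 between -0.23 and 0.52 and ADAMTS1 between -0.35 and 0.56 in sirloin muscle, and HYAL1 between -0.13 and 0.11 between the muscles. The causes were not tested. CD44 kept its direction in every setting run. HAS2 rests on 866 counts, HAS1 on 49 and HAPLN1 on 20, which limits what their values can show.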
